A study of Homo sapiens with 6 samples.

Results

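The complement system was described here by 9 genes, namely C3, CFB, CFI, C1R, C1S, SERPING1, CD46, CD55 and CD59, among the 60664 genes counted in RNA-seq of SiHa PR cells with and without P4HA3 overexpression. They were found by Ensembl gene ID, and they had been chosen from measured values of this very comparison. Their differences between the groups are therefore given as a description with no test of their own. Where a member is said below to be called, or to lose its call, this describes the fit across all genes. Such a call is no evidence about a member. Of the 9, 8 passed the filter on low counts and entered the fit across 15130 genes, and CFI did not.

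SiHa is an established human cervical carcinoma line, and SiHa PR denotes the parental cells of a lymph node metastatic derivative. The study asked which transcripts differ once P4HA3, a collagen prolyl 4-hydroxylase subunit, is overexpressed in these cells. Poly-A RNA was sequenced in 3 control samples, whose labels name only SiHa PR, and in 3 samples of the same cells labelled P4HA3. The methods of the study describe lentiviral delivery of P4HA3 and vector-carrying cells as controls of other assays, and do not say whether the sequenced controls carried the vector. All 6 samples therefore share the SiHa PR background, and neither the labels nor the methods say whether the samples of a group were separate cultures or single clones, so the adjusted p-values below measure a spread between samples that may be technical.

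Complement is a set of plasma and cell surface proteins that tag and lyse targets through the classical, lectin and alternative pathways, which all meet at cleavage of C3. C1r and C1s are the serine proteases of the first component of the classical pathway, factor B is the protease of the alternative pathway convertase, and C1 inhibitor (SERPING1) and factor I (CFI) restrain these steps in the fluid phase. CD46 and CD55 limit convertases on the cell's own membrane and CD59 blocks assembly of the membrane attack complex. The liver makes most plasma complement, epithelial cells also make C3, factor B, C1r and C1s, and carcinoma cells commonly carry the membrane regulators.

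The upstream sequences of 3 members are shown, taken from the 6 with a matched RefSeq sequence, which leave out C3, C1S and SERPING1. They belong to a classical pathway protease that was lower with P4HA3, an alternative pathway protease at a low level, and the membrane regulator at the highest level. Each is the 250 bases before a RefSeq start on GRCh38.p14, 5′ to 3′ on the transcribed strand, with matches to 4 motifs in capitals. C1R lies at chr12:7092446-7092695 on the minus strand, CFB at chr6:31945845-31946094 on the plus strand, and CD55 at chr1:207321428-207321677 on the plus strand.
C1R: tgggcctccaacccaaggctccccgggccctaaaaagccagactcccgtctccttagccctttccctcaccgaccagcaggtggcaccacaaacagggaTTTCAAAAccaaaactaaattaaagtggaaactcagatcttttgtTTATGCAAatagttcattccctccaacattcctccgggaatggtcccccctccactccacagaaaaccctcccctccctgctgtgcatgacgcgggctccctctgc
CFB: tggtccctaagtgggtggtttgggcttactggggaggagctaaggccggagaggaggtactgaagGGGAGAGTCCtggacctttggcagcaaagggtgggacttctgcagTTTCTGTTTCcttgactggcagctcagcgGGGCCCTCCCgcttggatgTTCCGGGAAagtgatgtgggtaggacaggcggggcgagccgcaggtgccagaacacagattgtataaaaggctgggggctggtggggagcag
CD55: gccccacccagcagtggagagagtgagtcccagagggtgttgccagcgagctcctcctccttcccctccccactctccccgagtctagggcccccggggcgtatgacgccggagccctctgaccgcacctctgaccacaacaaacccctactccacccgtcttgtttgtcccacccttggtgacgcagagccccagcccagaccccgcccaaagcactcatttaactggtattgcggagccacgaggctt

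RefSeq sequences were matched for 6 of the 9 members, with 11 starts in all, so the motif numbers do not cover C3, C1S and SERPING1. The letters searched on both strands were GGGANNNNCC for NF-kB, GAAANNGAAA for the interferon response element (ISRE), TTCNNNGAA for the interferon gamma activated site (GAS) and TTNNGNAA for C/EBP, and matches of different motifs may overlap. The CFB stretch held NF-kB letters beginning at positions -185 and -111 from the start, ISRE letters at -140 and GAS letters at -92. The C1R stretch held C/EBP letters at -151 and -106, and the CD55 stretch held none of the 4 motifs. Another RefSeq start of C1R, whose stretch is not shown, had NF-kB letters at -185, C/EBP letters at -167 and GAS letters at -86. Among 35116 RefSeq stretches of the same length, 22.6% held the NF-kB letters, 3.0% the ISRE letters, 6.6% the GAS letters and 33.2% the C/EBP letters, and among the 11 of the members the numbers were 2, 1, 4 and 4. Some of the 11 stretches overlap, as starts of CD46 and of CD59 lie close together. The same GAS letters before CD59 were counted at 2 of its starts. Such a match is a description of letters only.

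The libraries held between 21773488 and 24939948 gene counts, and CPM values (counts scaled to a common library size) below are scaled by trimmed mean of M-values (TMM) factors of 0.979 to 1.02. P4HA3 itself was counted 62 to 93 times in control libraries and 44775 to 49097 times in P4HA3 libraries. Of 7 markers of cervical carcinoma epithelium, 6 reached 1 CPM, and KRT5 did not. CDH1, KRT18 and CDKN2A were called lower with P4HA3, with log2 fold changes of -0.767, -0.395 and -0.267 (edgeR adjusted p = 0.00114, 0.0108 and 0.0369). KRT8, KRT7 and EPCAM were not called. With the trend on GC content and length removed, as described below, CDH1 at -0.795 and KRT18 at -0.201 were still called lower. KRT7 was then called higher, at 0.331, and CDKN2A at -0.071 was no longer called. KRT8 at 0.115 and EPCAM at -0.125 were again not called. Of 5 smooth muscle markers ACTA2 alone reached 1 CPM on average over the 6 libraries, at 7.78 CPM in control and 7.98 CPM in P4HA3 cells. ACTG2 was counted 0, 1 and 30 times in control and 40, 1 and 44 times in P4HA3 libraries, up to 1.73 CPM, and was not called, while MYH11, DES and CNN1 had at most 9 counts in any library. The hepatocyte markers ALB and TTR were at 0 in every library.

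Per transcript length, the members fell into a group of 6 abundant genes and a group of 3 rare ones. The unit is TPM, a level relative to all transcripts of the library, in which counts are divided by the length of the canonical transcript, and this scale is used wherever 1 gene is set against another. In control cells the order was CD55 with 188 ± 14.5 TPM, C3 with 133 ± 7.87 TPM, C1R with 131 ± 2.91 TPM, CD46 with 88.1 ± 9.24 TPM, C1S with 83.5 ± 1.41 TPM and CD59 with 58.3 ± 3.81 TPM (SD, n = 3). C3 at 127 to 142 TPM overlapped with C1R at 128 to 134 TPM, and CD46 at 78.7 to 97.2 TPM overlapped with C1S at 81.9 to 84.7 TPM, so neither pair of neighbours was separated by more than its spread. SERPING1 followed at 2.40 ± 0.142 TPM, CFB at 0.919 ± 0.0875 TPM and CFI at 0.0569 ± 0.0217 TPM.

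In P4HA3 libraries C3 ranked 5 instead of 2 in this order, at 65.8 ± 3.95 TPM, behind CD55 at 210 ± 13.4 TPM, C1R at 106 ± 7.17 TPM, CD46 at 95.9 ± 8.99 TPM and C1S at 67.8 ± 5.85 TPM. C3 at 61.9 to 69.8 TPM overlapped there with C1S at 63.4 to 74.5 TPM, and C1R at 100 to 114 TPM overlapped with CD46 at 85.9 to 103 TPM. CD59 at 53.9 ± 1.03 TPM again ranked 6, and the order of the 3 genes at the bottom was the same in both groups.

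**Figure D1:**
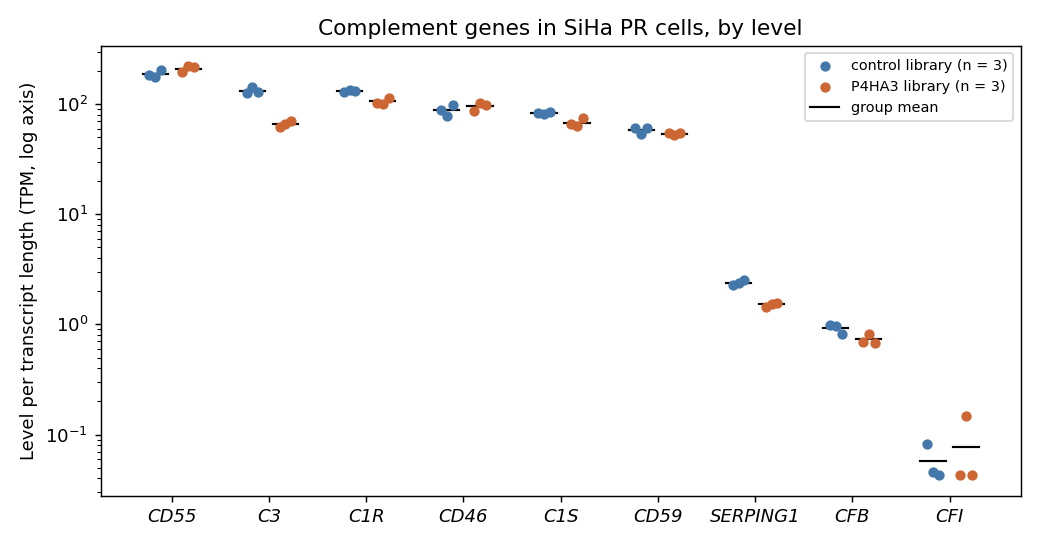
Level of each of the 9 complement genes in every library, in TPM on a log axis, with control libraries in blue, P4HA3 libraries in orange and a bar at each group mean (n = 3 each). The 6 higher genes lie between 52.7 and 220 TPM, well above SERPING1 at 1.45 to 2.54 TPM and CFB below 1 TPM, and C3 shows the widest gap between its groups.

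The order depends on the length used. With the merged length of all exons in place of the canonical transcript, the control order was C3 at 106 TPM, C1R at 99.6 TPM, CD55 at 83.9 TPM, CD59 at 73.8 TPM, C1S at 47.7 TPM and CD46 at 33.4 TPM. CFB shares 2249 of its 2476 canonical bases with exons of the overlapping gene ENSG00000244255, and CFI shares 1562 of 1978 bases with ENSG00000285330. Both of these overlapping genes were listed at 0 in all 6 libraries. How reads in shared exons were assigned is not stated, and if only unshared bases could be counted, CFB would stand at 10 TPM over 227 bases and CFI at 0.271 TPM over 416 bases in control cells. C1R shares 628 canonical bases, 25.2% of its length, with C1RL on the same strand, and on its remaining 1860 bases it would stand at 176 TPM, above C3.

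Between the groups, every P4HA3 library lay below every control library for C3, SERPING1, C1R, C1S, CFB and CD59, of which CFB and CD59 were not called. Values of the other membrane regulators, CD46 and CD55, overlapped between the groups. In the edgeR fit across all genes with Benjamini-Hochberg adjustment, 4 of the 8 members tested were called lower and 0 higher, where 11.4% of all genes tested were called lower and 9.36% higher. At an unadjusted p under 0.05 the numbers were 5 lower and 0 higher, against 2932 and 2922 of the 15130 genes tested. DESeq2 called 3 lower and 0 higher, against 1560 and 1538 across all genes, and gave SERPING1 no adjusted p. With limma-voom 4 were called lower and 0 higher, against 1714 and 1347 across all genes. Every P4HA3 library was below every control library for 6 of the 8 members and above for 0, against 20.4% and 19.7% of all genes tested. Because the members were selected on this comparison, nothing is read from these numbers. Without control replicate 2, 2 members were called, both lower, against 371 lower and 163 higher across all genes. The median log2 fold change of the 8 members was -0.38, and that of all genes tested was 0.006. Fewer cells that express a gene and less RNA per cell cannot be told apart in bulk RNA.

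**Figure D2:**
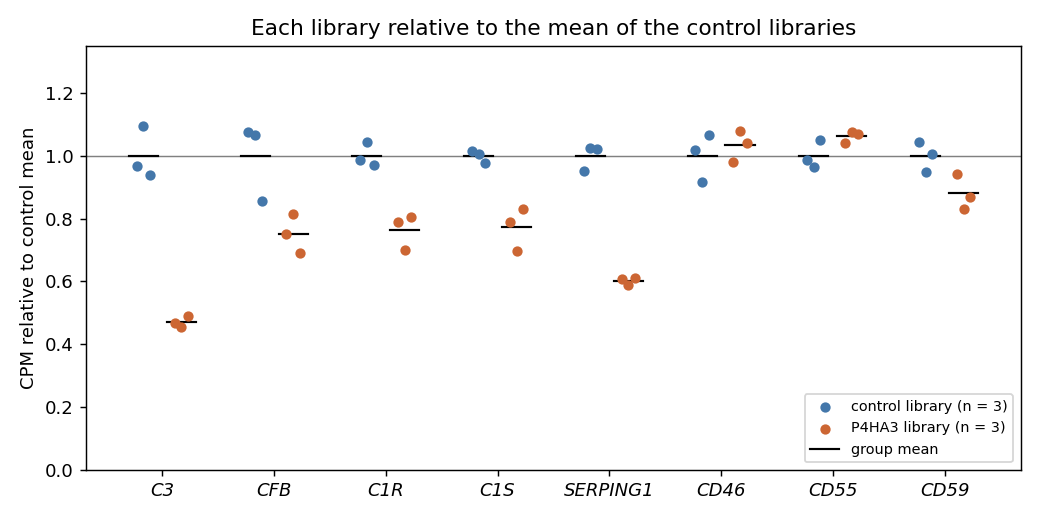
CPM of the 8 members tested in every library, divided by the mean of the control libraries, so that 1 is the control mean (blue, control; orange, P4HA3; bars, group means; n = 3 each). P4HA3 libraries sit at 0.454 to 0.489 for C3, 0.587 to 0.61 for SERPING1, 0.699 to 0.806 for C1R, 0.697 to 0.83 for C1S, and between 0.98 and 1.078 for CD46 and CD55.

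C3, the component on which all 3 pathways converge, showed the widest difference of the members (gene ENSG00000125730, GRCh38 chromosome 19, 6677704 to 6730562, minus strand). It was counted 8209, 8123 and 8002 times in control replicates 1 to 3 and 3792, 3559 and 4323 times in P4HA3 replicates 1 to 3. All P4HA3 libraries lay at 0.454 to 0.489 of the control mean, far from the lowest control library at 0.938. Control libraries averaged 348 ± 28.9 CPM and P4HA3 libraries 164 ± 6.14 CPM (SD, n = 3), which is -1.09 ± 0.0683 (SE) as a log2 fold change. Among 2408 genes averaging 100 CPM or more, 3 had a lower log2 fold change than C3. Leaving out each library in turn moved the value between -1.13 and -1.02.

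CFB, the serine protease of the alternative pathway convertase, was rare in these cells (ENSG00000243649, chromosome 6, 31945650 to 31952086, plus strand). Its counts were 30, 26 and 24 in control and 20, 21 and 20 in P4HA3 libraries. The groups did not overlap, at 1.14 ± 0.142 CPM in control and 0.860 ± 0.0727 CPM in P4HA3 cells (SD, n = 3). With so few reads the log2 fold change of -0.41 had an SE of 0.209, CFB was not called, and a difference was not detectable at this depth.

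C1R and C1S, which encode the paired proteases C1r and C1s, lie tail to tail on chromosome 12 with 9181 bases between them (C1R, ENSG00000159403, 7080214 to 7092540, minus strand; C1S, ENSG00000182326, 6988259 to 7071032, plus strand). C1R was counted 3939, 3649 and 3894 times in control and 3011, 2578 and 3354 times in P4HA3 libraries. C1S was counted 2776, 2409 and 2688 times in control and 2063, 1759 and 2365 times in P4HA3 libraries. Both genes were lower in every P4HA3 library, and replicate 2 was the lowest of the P4HA3 group for each. The means were 164 ± 6.39 and 125 ± 9.41 CPM for C1R, with a log2 fold change of -0.39 ± 0.0657 (SE), and 112 ± 2.18 and 86.7 ± 7.68 CPM for C1S, with a log2 fold change of -0.37 ± 0.0689 (SE). The count of C1R over that of C1S was 1.46 ± 0.049 in control and 1.45 ± 0.0258 in P4HA3 libraries (SD, n = 3), so the pair kept its ratio within the spread of replicates. C3 did not move in step with them, since C3 over C1R was 2.08, 2.23 and 2.05 in control libraries and 1.26, 1.38 and 1.29 in P4HA3 libraries. The call of C1S, unlike that of C1R, was lost without control replicate 2, where its log2 fold change was -0.37, and the value nearest 0, -0.31, came without P4HA3 replicate 2, where it was still called.

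SERPING1, the C1 inhibitor that inactivates C1r and C1s, was counted 51, 48 and 55 times in control and 31, 29 and 34 times in P4HA3 libraries (ENSG00000149131, chromosome 11, 57597387 to 57619171, plus strand). Its P4HA3 libraries lay close together, at 0.587 to 0.61 of the control mean. The mean was 2.20 ± 0.0901 CPM in control and 1.32 ± 0.0270 CPM in P4HA3 cells, with a log2 fold change of -0.73 ± 0.156 (SE). Per length, SERPING1 at 2.40 TPM in control cells stood far below the protease genes C1R at 131 TPM and C1S at 83.5 TPM. Left-out libraries moved the SERPING1 value between -0.77 and -0.71, and its call was lost without control replicate 2 and without P4HA3 replicate 3.

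CFI, the protease that degrades C3b and C4b together with cofactors such as CD46, was counted 2, 1 and 1 times in control and 1, 3 and 1 times in P4HA3 libraries (ENSG00000205403, chromosome 4, 109731008 to 109802150, minus strand). All values were at or under a floor of 3 counts per library, so no fold change is given.

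The 3 membrane regulators were all abundant. CD46, a cofactor for cleavage of C3b and C4b, was counted 3627, 2865 and 3818 times in control and 3342, 3551 and 3870 times in P4HA3 libraries (ENSG00000117335, chromosome 1, 207752037 to 207795513, plus strand). CD55, which speeds the decay of convertases and is held by a glycosylphosphatidylinositol (GPI) anchor, was counted 5863, 5004 and 6257 times in control and 5911, 5896 and 6606 times in P4HA3 libraries (ENSG00000196352, chromosome 1, 207321519 to 207386804, plus strand). For both genes the groups overlapped. CD46 had 146 ± 11 CPM in control and 151 ± 7.29 CPM in P4HA3 cells, a log2 fold change of 0.05 ± 0.0672 (SE) that turned to -0.15 when the trend on GC content and length was removed and to -0.01 without control replicate 2. CD55 had 244 ± 10.7 and 259 ± 4.43 CPM, a log2 fold change of 0.09 ± 0.0544 (SE) that turned to -0.08 when the same trend was removed.

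CD59, the GPI-anchored inhibitor of the membrane attack complex, was the member nearest to the threshold (ENSG00000085063, chromosome 11, 33703010 to 33736479, minus strand). It was counted 5619, 4467 and 5438 times in control and 4841, 4127 and 4869 times in P4HA3 libraries. After scaling, its P4HA3 libraries lay at 0.831 to 0.941 of the control mean, just under the lowest control library at 0.949. The mean was 221 ± 10.6 CPM in control and 194 ± 12.4 CPM in P4HA3 cells, with a log2 fold change of -0.18 ± 0.0634 (SE), and CD59 was not called. It was called without P4HA3 replicate 1, with a log2 fold change of -0.23, and with the GC content and length trend removed, with -0.30.

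Ratios within a library show the same pattern without any scaling between libraries. They still carry the trend on GC content described below, as C3 had 56.5% GC and the membrane regulators 38.2 to 45.2%. The count of C3 over the sum of CD46, CD55 and CD59 was 0.543, 0.658 and 0.516 in control and 0.269, 0.262 and 0.282 in P4HA3 libraries, 2 ranges that lie far apart. CD55 over CD59 was 1.04, 1.12 and 1.15 in control and 1.22, 1.43 and 1.36 in P4HA3 libraries, which did not overlap either, whereas CD46 over CD59, at 0.641 to 0.702 and 0.69 to 0.86, did. Together the 9 members took 0.122 to 0.125% of all counts in control and 0.0971 to 0.102% in P4HA3 libraries.

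The fold changes of the members went along with the base composition of their transcripts. GC content was 38.2% for CD46, 39.2% for CD55, 45.2% for CD59, 48.4% for C1S, 52.4% for CFB, 54.0% for C1R, 54.2% for SERPING1 and 56.5% for C3. Across 15107 genes tested, Spearman's rho between log2 fold change and GC content was -0.58, and the median log2 fold change ran from 0.24 for genes of 35 to 40% GC to -0.14 for genes of 55 to 60% GC. All 8 members lay below the median of genes with like GC content. After the trend on GC content and length was removed from each library, rho was -0.01, and the log2 fold changes were -0.98 for C3, -0.61 for SERPING1, -0.37 for C1S, -0.33 for CFB, -0.30 for CD59, -0.28 for C1R, -0.15 for CD46 and -0.08 for CD55. The spread among members was thus narrower, the order of the lower ones was partly rearranged, and no member was above 0. The part of the GC trend in these differences was not tested.

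**Figure D3:**
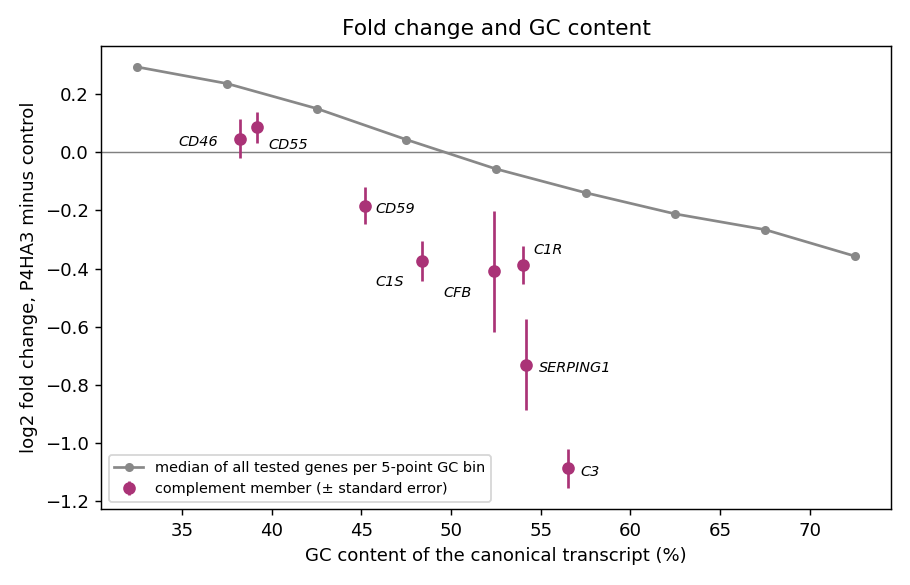
Log2 fold change, P4HA3 minus control, of the 8 members tested (purple, ± SE) against the GC content of their canonical transcripts, with the median of all genes tested in bins of 5 percentage points (grey line). The line falls from 0.24 in the 35 to 40% bin to -0.14 in the 55 to 60% bin, and every member lies under it, C3 the farthest.

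Beyond the members, 49 further complement genes were listed by role from textbook knowledge, with earlier results of these data known. Their calls are therefore no independent check of the members. Most of the 49 were at or near 0. Of these, 20 had no count in any library and 38, the 20 included, were too low to be tested. C1QA, C1QB and C1QC, the chains of the recognition molecule C1q that C1r and C1s bind, were at 0 in every library, as were MBL2 and the ficolins FCN1, FCN2 and FCN3 of the lectin pathway. The pore components C8A, C8B and C9 and the receptors C3AR1 and CR1 were also at 0 throughout. C4A and C4B, near-identical copies whose reads may be split between them, had at most 16 and 8 counts, while C2 had 33 to 49 counts.

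Of the 11 that were tested, 4 were called lower with P4HA3 and 0 higher by edgeR, against 11.4% and 9.36% of all genes tested. DESeq2 and limma-voom each also called 4 lower and 0 higher. Across all genes DESeq2 called 1560 lower and 1538 higher, and limma-voom 1714 lower and 1347 higher. At an unadjusted p under 0.05 the numbers were 4 lower and 0 higher as well, against 2932 and 2922 of the 15130 genes tested. The median log2 fold change of the 11 was -0.21. CFD, factor D, the protease that activates factor B, fell from 12.3 ± 1.05 to 6.97 ± 0.970 CPM, a log2 fold change of -0.81 ± 0.121 (SE; edgeR adjusted p = 0.00287). VTN, encoding vitronectin, which keeps the terminal complex out of membranes, fell from 38.0 ± 1.81 to 25.6 ± 3.93 CPM, a log2 fold change of -0.57 ± 0.105 (SE; edgeR adjusted p = 0.00726). CLU, encoding clusterin with a like activity, fell from 221 ± 19.4 to 174 ± 8.37 CPM, a log2 fold change of -0.34 ± 0.0705 (SE; edgeR adjusted p = 0.0109). All 3 genes were lower in every P4HA3 library.

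C1RL, a C1r-like protease gene next to C1R, fell from 48.3 ± 1.79 to 36.8 ± 0.431 CPM, a log2 fold change of -0.39 ± 0.0622 (SE; edgeR adjusted p = 0.00361). Its exons overlap those of C1R by 672 bases on the same strand, so the 2 values may not be separate measurements. The calls of VTN and CLU were lost without control replicate 2, and those of CFD and C1RL held without any single library. The other 7 were not called, with log2 fold changes from -0.34 for CR2 to 0.26 for COLEC11, and among them C1QBP, a mitochondrial protein that can bind C1q, was the most abundant at 462 TPM in control and 497 TPM in P4HA3 cells.

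**Figure D4:**
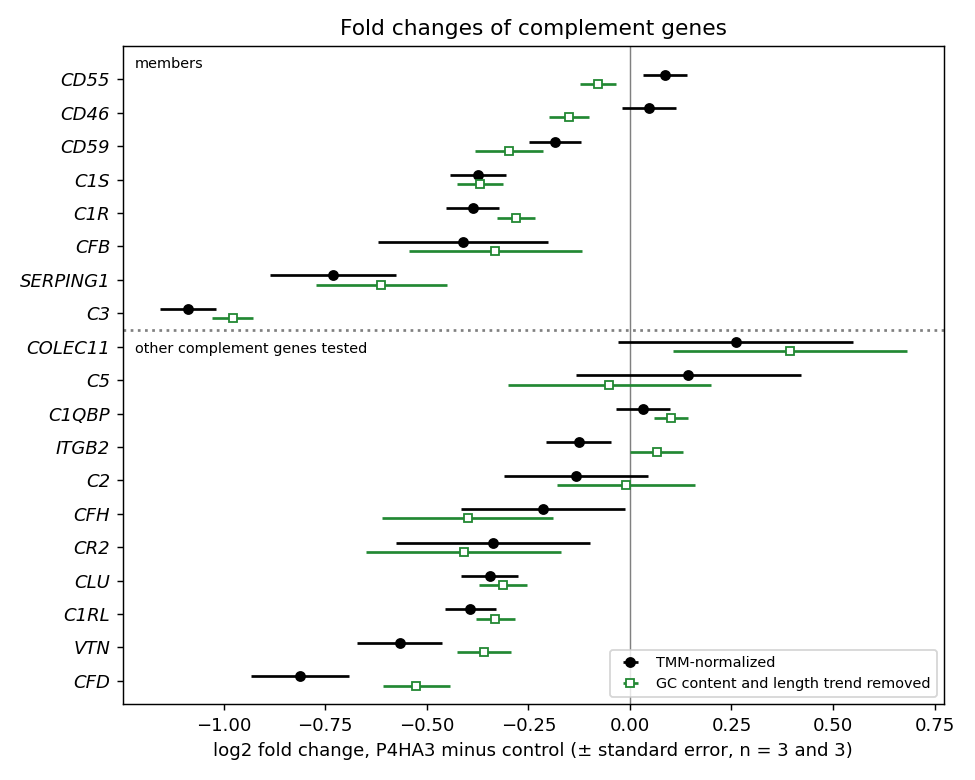
Log2 fold change, P4HA3 minus control (± SE, n = 3 and 3), of the 8 members tested above the dotted line and of the 11 other complement genes tested below it, with TMM scaling (black circles) and with the trend on GC content and length removed (open green squares). C3 at -1.09 and CFD at -0.81 lie farthest to the left with TMM scaling. Between the scalings CD46 and CD55 cross 0 among the members, as do C5 and ITGB2 among the other genes.

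CD14, a pattern recognition receptor with a GPI anchor that is listed here as a leukocyte marker, was also lower with P4HA3. It was counted 2406, 2337 and 2234 times in control and 1184, 789 and 1250 times in P4HA3 libraries, and fell from 99.9 ± 9.25 to 45.1 ± 8.68 CPM, a log2 fold change of -1.15 ± 0.125 (SE; edgeR adjusted p = 0.000757). It was the only 1 of 5 leukocyte markers to reach 1 CPM, and the sum of the 5 ran from 91.3 to 110 CPM in control and from 35.1 to 50.9 CPM in P4HA3 libraries. PTPRC, which marks leukocytes at large, was counted once in 1 library and 0 times in the other 5, CD3E was at 0 throughout, and CD68 and LYZ had at most 2 counts. PECAM1, an endothelial marker, fell from 2.89 ± 0.473 to 1.40 ± 0.0634 CPM (edgeR adjusted p = 0.00494), while the sum of 4 fibroblast markers ran from 47.5 to 53.3 CPM in control and from 38.7 to 52.4 CPM in P4HA3 libraries.

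The genes whose log2 CPM followed each member most closely over the 6 libraries were sought among protein-coding genes averaging 10 CPM or more. Pearson's r was 0.999 for C3 with C1RL, 0.975 for CFB with TFAP4, 0.999 for C1R with GAS1, 0.997 for C1S with RDH11 and 0.997 for SERPING1 with DUSP4. It was 0.983 for CD46 with MTAP, 0.999 for CD55 with B3GLCT and 0.994 for CD59 with PPIA. These are descriptions over 6 points in 2 groups, which share the group difference and the composition of each library, and 448 genes passed an r of 0.95 with C3 and 623 with C1R, but 18 with CD46 and 28 with CFB.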

How the data were processed

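The authors deposited raw counts per gene for 3 control and 3 P4HA3 libraries of SiHa PR cells. According to the methods of the study, poly-A RNA was made into dUTP libraries, read as paired ends, aligned to GRCh38 with STAR and counted with HTSeq, whereas the submitters' processing notes name HISAT2. The strand setting and the handling of ambiguous reads are not given in the sources used here. The labels' growth protocol describes a smooth muscle tissue, but the source name, cell line label and paper give SiHa cells, and that was used.

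Libraries were grouped by sample title. Of 60664 gene IDs, 60463 matched GENCODE on GRCh38 for symbols, positions, GC content and length. Genes passing filterByExpr (minimum count 10) were fitted with the quasi-likelihood test of edgeR 4.0.16 in R 4.3.3 with TMM scaling, and called at a Benjamini-Hochberg adjusted p under 0.05 over all 15130 genes tested. The members and the gene lists were chosen with earlier results of these data known, and the members get no p-value. Besides the 9 members and P4HA3, called genes of each list were named up to 8 per list, those with the largest absolute log2 fold change first, if their mean was at least 1 CPM. For each member the 1 gene with the highest correlation was also named, and so were genes sharing its exons. Cell type markers, uncalled complement genes, PIGK, PIGQ, PIGA, PIGV, PGAP1, JAK1, OSMR, IL1R1, SERPINA1 and 3 uncalled transcription factors were named after their values were seen.

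Alternatives were DESeq2 1.42.0, limma-voom (limma 3.58.1), other scalings and filters, an adjusted p under 0.01, a replicate block, each library left out, and a smooth trend on GC content and length (mgcv 1.9.3) entered as an offset, which removes any difference that follows GC content or length, whatever its source. A combination of that offset with the block and the unshared transcript length were added after seeing the data. Chi-square per degree of freedom between libraries of a group was 5.15 to 17.6, so no library was a copy of another. The low precision of genes near 10 counts follows from the depth. RefSeq sequences upstream of each start were searched for motifs as letters.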

Additional observations from a re-analysis of the deposited data

How the results depend on the processing

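Of all genes tested, 3147 were called, 1416 higher and 1731 lower. Leaving out 1 library in turn gave 534 genes (without control replicate 2) to 5530 (without P4HA3 replicate 1), with 781 without control replicate 1 and 904 without P4HA3 replicate 3, and an adjusted p under 0.01 gave 728. With the trend on GC content and length removed, 1597 genes were called higher and 1203 lower. Without 1 library, the calls ranged from 2 (without control replicate 2) to 5 for the members against 4 with all libraries. For the other complement genes they ranged from 2 (without control replicate 2) to 4 against 4, and for GPI anchor genes from 2 to 13 against 10. For genes of the complement-inducing routes, feedback genes included, they ranged from 3 to 14 against 9. For acute-phase genes they ranged from 0 to 3 against 3. The 0 acute-phase calls came from edgeR without control replicate 1 and without control replicate 2, with 4 and 3 genes at an unadjusted p under 0.05, and DESeq2 called 1 with all libraries. The log2 fold change of CD46, 0.05 with all libraries, was -0.15 with the GC content and length trend removed (-0.148 with the block added), and ranged from -0.01 to 0.10 without 1 library. That of CD55, 0.09, was -0.079 with the trend removed and -0.08 with the block added. Whether the replicate numbers pair the samples cannot be told here, since the deviations of 3 libraries from their group mean sum to 0. Deviations of same-numbered libraries correlated at 0.33, -0.08 and 0.02. Control replicate 1 correlated best with P4HA3 replicate 1, at 0.33, and control replicate 3 with P4HA3 replicate 2, at 0.38. With the replicate block 4313 genes were called, and 5 members, 4 other complement genes, 10 GPI anchor genes, 12 genes of the complement-inducing routes and 3 acute-phase genes. CD59 was the added member, with a log2 fold change of -0.185. The causes of these changes were not tested. SERPING1 and CFB, with 20 to 55 counts a library, were the members most limited by depth, and CFI could not be tested.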

Other observations

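CD55 and CD59 reach the cell surface on a GPI anchor, and 29 of 30 listed genes that build, transfer or remodel this anchor were tested. Of these, 9 were called lower with P4HA3 and 1 higher, against 11.4% and 9.36% of all genes tested, with a median log2 fold change of -0.08. The 10 calls dropped to 4, 2 and 3 when control replicate 1, control replicate 2 or P4HA3 replicate 3 was left out. PIGZ, a mannosyltransferase of the pathway, fell from 8.35 ± 0.710 to 4.65 ± 0.401 CPM, a log2 fold change of -0.84 (edgeR adjusted p = 0.0021). PGAP4, which adds a side chain sugar in the Golgi, had a log2 fold change of -0.50 (edgeR adjusted p = 0.00302). The remodelling genes PGAP3 and PGAP2 changed by -0.43 and -0.40 on the log2 scale (edgeR adjusted p = 0.0187 and 0.0135), and PGAP6 by -0.39 (edgeR adjusted p = 0.00767). DPM3 had -0.45, PIGF -0.37 and GPAA1 -0.33 (edgeR adjusted p = 0.0265, 0.0286 and 0.0172). PIGK, a subunit of the transamidase that attaches the anchor, was the gene called higher, with a log2 fold change of 0.29 that shrank to 0.02 once the GC content and length trend was removed. PIGA, which starts the pathway, was not called, at 0.16. With that trend removed 8 genes were called lower and 0 higher, but not the same genes, against 1203 and 1597 of the 15130 genes tested. The median of the list was then -0.075, and that of all genes tested was 0.019. GPAA1 at -0.06, DPM3 at -0.18 and PIGQ at -0.03 were then no longer called, while PIGV at -0.24 and PGAP1 at -0.36 were.

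Complement genes are known to be induced by interleukin 6, tumour necrosis factor and interferon through C/EBP, NF-kB, STAT and IRF factors, and 35 of 39 listed genes of these routes were tested. Of these, 8 were called lower and 1 higher, against 11.4% and 9.36% of all genes tested, with a median log2 fold change of -0.17. The 9 calls became 4, 3 and 4 when the same libraries were left out, and 14 when P4HA3 replicate 1 was. IL6, the cytokine itself, fell from 74.7 ± 3.48 to 52.6 ± 2.40 CPM, a log2 fold change of -0.51 (edgeR adjusted p = 0.00135), and had -0.59 with the trend on GC content and length removed. RELB, an NF-kB subunit, had -0.48 (edgeR adjusted p = 0.00645) and SOCS3, a feedback inhibitor induced by STAT3, had -0.39 (edgeR adjusted p = 0.00705). CEBPB fell from 386 ± 22.5 to 290 ± 23.0 CPM, a log2 fold change of -0.41 (edgeR adjusted p = 0.00576), which was -0.12 and no longer called with the trend removed. The call of CEBPD, at -0.24 (edgeR adjusted p = 0.032), turned to a log2 fold change of 0.06 with the trend removed. IRF1 had -0.28, the receptor TNFRSF1A -0.25 and NFKBIA, listed like SOCS3 as a feedback gene, -0.22 (edgeR adjusted p = 0.0231, 0.0242 and 0.0391). The list thus holds feedback genes as well, and not every lower call in it is of an inducer. JAK1, the kinase called higher, had 0.21 (edgeR adjusted p = 0.034). With the trend removed 5 genes were called lower and 1 higher, against 1203 and 1597 of the 15130 genes tested. The median of the list was then -0.08, and that of all genes tested was 0.019. RELB at -0.21, NFKBIA at -0.12 and TNFRSF1A at -0.08 were then no longer called, SOCS3 at -0.19, IRF1 at -0.20 and JAK1 at 0.14 still were, and OSMR at -0.26 and IL1R1 at -0.34 were called in addition. With TMM scaling alone STAT3 at -0.02, NFKB1 at -0.01 and RELA at -0.10 were not called.

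Of 19 listed acute-phase genes, 6 reached the test, 2 were called lower and 1 higher by edgeR, against 11.4% and 9.36% of all genes tested. DESeq2 called 1 lower and 0 higher, against 1560 and 1538 across all genes. With control replicate 1 or 2 left out edgeR called 0, with 4 and 3 genes at an unadjusted p under 0.05. Across all genes it then called 781 and 534, with 4105 and 4091 at an unadjusted p under 0.05. With P4HA3 replicate 3 left out it called 1 of the list and 904 across all genes. SAA1, encoding a serum amyloid A protein, was counted 94, 76 and 75 times in control and 53, 32 and 49 times in P4HA3 libraries, with a log2 fold change of -0.89 (edgeR adjusted p = 0.011). SERPINA1, encoding alpha-1 antitrypsin, was counted 19, 18 and 22 times in control and 11, 3 and 7 times in P4HA3 libraries. A2M, encoding the protease trap alpha-2-macroglobulin, was counted 23, 23 and 32 times in control and 46, 40 and 54 times in P4HA3 libraries, with a log2 fold change of 0.82 (edgeR adjusted p = 0.0161).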
